A study of Homo sapiens with 20 samples.

Results

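This account follows 9 genes that write, copy, read and erase DNA methylation through all-trans retinoic acid (ATRA) treatment of HL60, an established human acute myeloid leukaemia cell line. The 9 genes, DNMT1, UHRF1, DNMT3A, DNMT3B, TET1, TET2, TET3, TDG and MBD2, were picked by symbol from the 28051 named genes of the RNAseq tables, and 4 of the 8286 deposited ATACseq regions list a member of the set. RNAseq covered 12 libraries in 4 groups of 3, and ATACseq, which reads open chromatin, covered 8 libraries in the same 4 groups of 2. Each group came from a lentiCRISPRv2 HL60 line, either a Cas9 control or a line labelled HK3-null for hexokinase 3, and was kept for 36 h in 1 µM ATRA or in DMSO at 0.01%. Lines of this kind were grown from single cells by limiting dilution, and every title of the knockout carries the same line name, so nothing shows the replicates to be different clones and p-values measure the spread between libraries only.

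RNA of HK3 itself was no lower where the label reads HK3-null. It stood at 90, 65 and 105 normalized counts in Cas9 control DMSO and at 344, 302 and 346 in the DMSO libraries labelled HK3-null, a log2 change of 1.96 with an adjusted p of 1.11e-05. Under ATRA the values were 1305, 1298 and 1850 against 1384, 1285 and 1975, with an adjusted p of 0.836. RNA can persist after a frameshift, so these counts do not check the label. The paper reports indels at the cut site by sequencing, and no HK3 peptide spectra in pooled HL60 knockout clones after vitamin D treatment. Whether this line was among those clones is not stated. The groups are named below by their labels.

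In mammalian cells, cytosines in CG pairs are methylated de novo by DNMT3A and DNMT3B. At each round of replication UHRF1 binds the half-methylated daughter strand and brings in DNMT1, which copies the mark. TET1, TET2 and TET3 oxidise methylcytosine, TDG cuts the most oxidised forms out for base excision repair, and MBD2 reads methylated CG within a repressive chromatin complex. DNMT3A and TET2 are recurrently mutated in acute myeloid leukaemia. No methylation was measured in the data described here, only the RNA of these genes and the openness of chromatin near them.

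The accessible regions assigned to the set all lay beside TET3 or UHRF1, and their central 261 bases are printed because these windows carry the ATACseq result described further on. Sequences are from the forward strand of GRCh38, the build named for these files, and capitals mark CG, the pair on which the members act. The first TET3 window is chr2:73981287-73981547, inside an exon of the antisense transcript DGUOK-AS1. It lies 3493 bases upstream of the nearest TET3 start that has a RefSeq promoter window. All distances given are to starts with such a window, and the RefSeq TET3 gene itself begins nearer, at 73983631. The second, chr2:74032517-74032777, lies within TET3 but in no exon, 29955 bases downstream of the nearest RefSeq start. The UHRF1 windows, chr19:4911901-4912161 and chr19:4916623-4916883, are intronic, 1664 and 6386 bases downstream of the nearest RefSeq start.
TET3 upstream region: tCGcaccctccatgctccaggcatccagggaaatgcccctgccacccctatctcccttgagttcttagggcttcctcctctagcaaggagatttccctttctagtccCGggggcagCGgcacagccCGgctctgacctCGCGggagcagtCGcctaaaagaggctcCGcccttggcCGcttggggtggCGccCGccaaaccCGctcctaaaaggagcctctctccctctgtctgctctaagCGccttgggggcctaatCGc
TET3 internal region: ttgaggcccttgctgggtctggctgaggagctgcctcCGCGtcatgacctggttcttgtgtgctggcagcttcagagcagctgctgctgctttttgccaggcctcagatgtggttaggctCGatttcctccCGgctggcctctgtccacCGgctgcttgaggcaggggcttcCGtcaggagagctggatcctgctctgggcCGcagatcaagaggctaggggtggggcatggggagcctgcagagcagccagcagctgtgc
UHRF1 proximal region: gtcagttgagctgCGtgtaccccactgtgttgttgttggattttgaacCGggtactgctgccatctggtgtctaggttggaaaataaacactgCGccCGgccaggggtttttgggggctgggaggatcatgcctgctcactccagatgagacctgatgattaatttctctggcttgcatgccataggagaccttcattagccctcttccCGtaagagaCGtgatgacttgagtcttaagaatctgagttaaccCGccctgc
UHRF1 distal region: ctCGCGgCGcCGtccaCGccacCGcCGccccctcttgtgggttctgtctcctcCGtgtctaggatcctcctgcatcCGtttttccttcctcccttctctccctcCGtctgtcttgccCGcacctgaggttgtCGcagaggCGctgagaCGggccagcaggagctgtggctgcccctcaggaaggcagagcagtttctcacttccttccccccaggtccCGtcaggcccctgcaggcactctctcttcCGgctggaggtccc
These windows hold 14, 7, 7 and 16 CG pairs in the order printed, against a median of 4 over the same central window of all 8286 regions. GAGGAA, searched on both strands, is in every window but the UHRF1 proximal one, and in 39.9% of all regions. TGACTCA is in none of the 4 and in 13.8% of all regions. A match describes the letters of the window and says nothing of binding.

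The promoters of the maintenance pair UHRF1 and DNMT1 are shown because they share a site that the other members' windows lack. A match describes letters only, and any part of the site in the RNA changes below was not tested. The E2F-type forms TTTCGCGC, TTTGGCGC and TTTCCCGC were searched on both strands in 300-base RefSeq promoter windows, each spanning a transcript start on GRCh38.p14. At least 1 form was found in 2 of the 3 UHRF1 windows and in the 1 DNMT1 window. None was found in the windows of the other 7 members, and 2.74% of all 35097 windows held one. The 1 DNMT3B window, chr20:32779602-32779901, lies downstream of the gene's start at 32762385. All TET3 and UHRF1 windows likewise lie downstream of their genes' starts, at 73983631 and 4903080. The sequence at these starts was not searched. The UHRF1 windows are chr19:4909251-4909550 and chr19:4909894-4910193 on the plus strand, the DNMT1 window is chr19:10194904-10195203 on the minus strand, each is written along its gene, and capitals mark the match.
UHRF1 promoter, upstream start: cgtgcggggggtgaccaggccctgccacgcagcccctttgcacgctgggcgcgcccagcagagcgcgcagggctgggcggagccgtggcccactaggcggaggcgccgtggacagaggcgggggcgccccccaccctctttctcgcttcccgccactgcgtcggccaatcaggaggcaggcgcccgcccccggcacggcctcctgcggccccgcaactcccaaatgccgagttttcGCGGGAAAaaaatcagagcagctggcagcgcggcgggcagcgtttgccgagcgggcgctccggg
UHRF1 promoter, downstream start: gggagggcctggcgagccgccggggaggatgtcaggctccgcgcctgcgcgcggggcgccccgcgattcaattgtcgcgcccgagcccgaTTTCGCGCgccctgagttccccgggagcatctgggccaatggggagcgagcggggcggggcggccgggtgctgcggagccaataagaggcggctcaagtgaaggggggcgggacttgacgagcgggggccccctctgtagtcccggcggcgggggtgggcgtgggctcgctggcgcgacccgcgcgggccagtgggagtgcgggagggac
DNMT1 promoter: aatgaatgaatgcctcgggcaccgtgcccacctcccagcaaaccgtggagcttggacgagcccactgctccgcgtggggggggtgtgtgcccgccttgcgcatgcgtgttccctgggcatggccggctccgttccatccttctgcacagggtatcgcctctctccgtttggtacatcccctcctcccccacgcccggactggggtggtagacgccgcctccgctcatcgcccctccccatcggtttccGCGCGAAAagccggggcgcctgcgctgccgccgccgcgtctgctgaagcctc

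Across the 12 RNAseq libraries, normalized totals ran from 29053838 to 31548189 and genes above 0 from 15031 to 16750, the highest being Cas9 control DMSO replicate 1. The 10 myeloid markers, MPO and ELANE among them, were detected in every group. Of 12 markers of other blood or culture cells, MS4A1 was at 0 throughout. The summed level of the 12 ran from 325 to 665 in Cas9 control DMSO and from 1002 to 1066 in DMSO labelled HK3-null. It ran from 542 to 616 in Cas9 control ATRA and from 2472 to 2827 in ATRA labelled HK3-null. In group means most of it was NKG7 and PECAM1. COL1A1 averaged 112 in Cas9 control DMSO, above PECAM1 there at 52.3, and 21.3 or less in the other groups. The 12 ATRA response markers summed to 1052 to 1267 in Cas9 control DMSO and 25303 to 25563 in DMSO labelled HK3-null. Under ATRA they summed to 22106 to 23022 in the Cas9 control and 108635 to 118586 where labelled HK3-null. In DMSO labelled HK3-null most of the sum was S100A8 and S100A9, with means of 8019 and 15583. TGM2 and DHRS3 averaged 6.67 and 3.67 there. By the test described below, 8 of the 12 were higher than in Cas9 control DMSO and 4 did not pass. The part of these shifts in the results below was not tested. In bulk RNA, fewer cells of a kind and less RNA per cell cannot be told apart.

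Scaled to the length of the canonical transcript, the members spanned a wide range. In Cas9 control DMSO, DNMT1 was highest at 1964 ± 112 normalized counts per kb (SD, n = 3), followed by UHRF1 at 1159 ± 32.6. MBD2 and TDG came next at 622 ± 31.1 and 609 ± 20.5, and their libraries overlapped. TET3 stood at 269 ± 20.4 and TET2 at 163 ± 0.73. The de novo enzyme DNMT3B, at 23.3 ± 4.08, overlapped TET1, at 18.6 ± 2.09, and TET1 in turn overlapped DNMT3A, at 17.1 ± 1.38. The same members filled the top and the bottom of the order in every group, although in both groups labelled HK3-null TDG came above MBD2. Under ATRA, TET1 was the lowest in both lines. With the union of all annotated exons as the length, UHRF1 came before DNMT1 in 3 of the 4 groups.

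**Figure D1:**
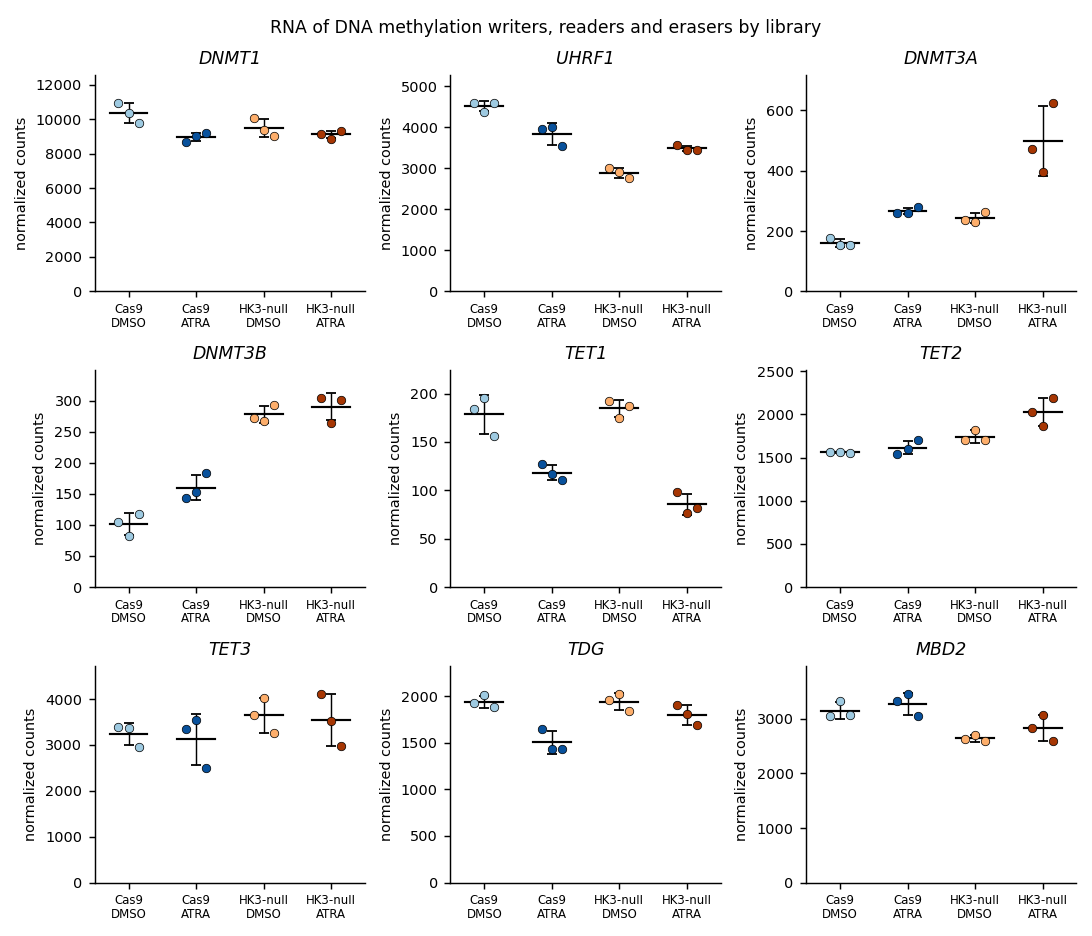
Normalized counts (y axis, from 0) of each of the 9 genes in each RNAseq library, by group on the x axis, where HK3-null stands for libraries so labelled. Points are libraries, bars are group means and error bars 1 SD (n = 3). DNMT3B separated the lines, DNMT3A and TET1 moved with ATRA in both, and UHRF1 fell with ATRA in the Cas9 control and rose in the line labelled HK3-null.

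Each comparison was read from a limma fit over 13256 genes, and a gene passed at a Benjamini-Hochberg adjusted p under 0.05. ATRA against DMSO asks how differentiation treatment moved the members in each line. In the Cas9 control 2 of the 9 members passed higher, where 20.3% of all tested genes did, and 4 passed lower, where 21.3% did. In the line labelled HK3-null 3 passed higher and 1 lower, against 24.0% and 25.1% of all tested genes. A change of at least 2-fold was met by 0 members in the Cas9 control (9.63% of tested genes) and by 2, DNMT3A and TET1, in the line labelled HK3-null (14.1%). The comparison between lines asks what accompanied the HK3-null label. In DMSO 2 members passed higher (27.9% of tested genes) and 2 lower (27.1%), and DNMT3B alone reached 2-fold (19.3%). Under ATRA 4 passed higher (29.6%) and 2 lower (29.5%), and none reached 2-fold (21.3%). The member counts are small, and most lie near those backgrounds. The median log2 change of the members was between -0.07 and 0.18 over the 4 comparisons, against medians of all tested genes between 0 and 0.01.

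**Figure D2:**
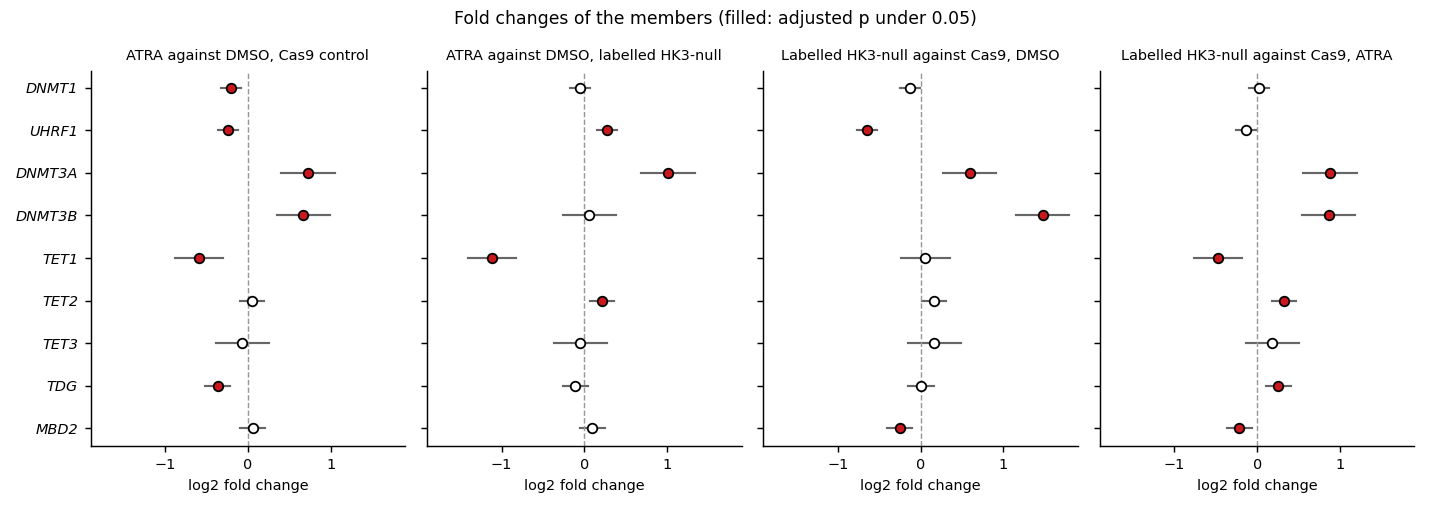
Log2 fold change (x axis) of each member (y axis) in the 4 comparisons, with 95% confidence intervals from limma. Filled points passed at an adjusted p under 0.05. DNMT3A lay to the right of 0 and passed in all 4 panels, and TET3 passed in none.

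DNMT3B, a de novo methyltransferase, showed the largest change of the set. DNMT3B stood at 104, 82 and 117 normalized counts in Cas9 control DMSO, 144, 153 and 183 in Cas9 control ATRA, 272, 268 and 294 in DMSO labelled HK3-null, and 304, 265 and 302 in ATRA labelled HK3-null. All 6 libraries labelled HK3-null lay above all 6 Cas9 control libraries. In DMSO this was a 2.78-fold higher level (log2 change 1.48, SE 0.14, adjusted p 5.78e-06), and under ATRA a 1.82-fold higher level (0.86, SE 0.14, adjusted p 0.000324). ATRA raised DNMT3B 1.59-fold in the Cas9 control (0.67, adjusted p 0.0032). In the line labelled HK3-null its change under ATRA was 0.06 (95% interval -0.26 to 0.38, adjusted p 0.759). The difference between these ATRA responses was -0.61 (SE 0.20) and did not pass (adjusted p 0.0962), but passed with the replicate number as a block (adjusted p 0.0170).

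DNMT3A, the other de novo enzyme, rose with ATRA in both lines. Its normalized counts were 176, 154 and 153 in Cas9 control DMSO, 260, 259 and 278 in Cas9 control ATRA, 236, 230 and 262 in DMSO labelled HK3-null, and 472, 396 and 624 in ATRA labelled HK3-null. No group overlapped the DMSO Cas9 control, and the DMSO libraries labelled HK3-null reached into the range of Cas9 control ATRA. The ATRA change was 1.65-fold in the Cas9 control (log2 0.72, SE 0.15, adjusted p 0.00217) and 2.02-fold in the line labelled HK3-null (1.01, adjusted p 0.00015). That last change was below 2-fold without ATRA replicate 3 (0.84 on the log2 scale), DMSO replicate 1 (0.99) or DMSO replicate 2 (0.97) of the line labelled HK3-null, under quantile normalization (0.96) and with equal library totals (0.97). Between lines DNMT3A was 1.51-fold higher in DMSO (0.59, adjusted p 0.00509) and 1.84-fold higher under ATRA (0.88, adjusted p 0.000314). The difference between the ATRA responses was 0.29 (95% interval -0.17 to 0.74, adjusted p 0.485), and ran from 0.11 without ATRA replicate 3 to 0.44 without ATRA replicate 2 of the line labelled HK3-null.

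UHRF1, which recognises half-methylated DNA, fell with ATRA in the Cas9 control and rose in the line labelled HK3-null. Its normalized counts were 4592, 4373 and 4594 in Cas9 control DMSO and 3965, 4010 and 3532 in Cas9 control ATRA. They were 3001, 2903 and 2755 in DMSO labelled HK3-null and 3560, 3447 and 3443 in ATRA labelled HK3-null. The DMSO libraries labelled HK3-null were the lowest of the 4 groups and overlapped no other. The ATRA change was -0.24 on the log2 scale in the Cas9 control (SE 0.06, adjusted p 0.00567) and 1.21-fold upward in the line labelled HK3-null (0.27, SE 0.06, adjusted p 0.00199). The difference between these responses was 0.51 (SE 0.08, 95% interval 0.33 to 0.69, adjusted p 0.00221), and 9.12% of all tested genes passed that test. Without the replicate block no other member passed it, and with the block DNMT3B, TET1 and TDG passed as well. In DMSO the libraries labelled HK3-null held 0.638 times the Cas9 control level (-0.65, adjusted p 2.35e-06). Under ATRA the lines were closer, with a change of -0.14 and an adjusted p of 0.0568. Whether it passed depended on the setting, and the adjusted p was 0.0192 with the replicate number as a block, 0.00789 under quantile normalization, 0.00696 with equal library totals and 0.00805 without Cas9 control ATRA replicate 3.

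DNMT1, the copying enzyme, had the highest RNA level per kb and changed little. Its libraries read 10939, 10372 and 9756 normalized counts in Cas9 control DMSO, 8690, 9021 and 9169 in Cas9 control ATRA, 10051, 9352 and 9012 in DMSO labelled HK3-null, and 9151, 8866 and 9310 in ATRA labelled HK3-null. Only the Cas9 control separated by treatment. There DNMT1 fell by 0.21 on the log2 scale (SE 0.05, adjusted p 0.0103), a call lost under quantile normalization (adjusted p 0.237). In the line labelled HK3-null the ATRA change was -0.06 (95% interval -0.18 to 0.07). Between lines it was -0.13 in DMSO (adjusted p 0.067, or 0.0393 with the replicate block) and 0.02 under ATRA (adjusted p 0.728). DNMT1 shares 83 annotated exon bases with S1PR2 on the same strand, TET3 and TDG share 390 and 168 with long noncoding RNAs, and DNMT3A, TDG and TET1 each have a processed pseudogene, so reads there could be split.

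Among the TET enzymes, the scarcest changed most. TET1 stood at 184, 195 and 156 normalized counts in Cas9 control DMSO, 127, 117 and 111 in Cas9 control ATRA, 192, 175 and 187 in DMSO labelled HK3-null, and 98, 77 and 82 in ATRA labelled HK3-null. In each line every ATRA library lay below every DMSO library. ATRA lowered TET1 to 0.665 of the DMSO level in the Cas9 control (log2 -0.59, SE 0.13, adjusted p 0.00429) and to 0.462 in the line labelled HK3-null (-1.11, SE 0.13, adjusted p 3.33e-05). Between lines TET1 did not pass in DMSO (0.06, 95% interval -0.24 to 0.35), and under ATRA was lower where labelled HK3-null (-0.47, adjusted p 0.00967). The difference between the ATRA responses, -0.53, had an adjusted p of 0.119, or 0.0434 with the replicate block and 0.0448 with equal library totals.

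TET2 moved the opposite way and by less. Its normalized counts were 1565, 1567 and 1554 in Cas9 control DMSO, 1546, 1600 and 1701 in Cas9 control ATRA, 1701, 1825 and 1706 in DMSO labelled HK3-null, and 2030, 1861 and 2186 in ATRA labelled HK3-null. The ATRA libraries labelled HK3-null were above all others. Under ATRA TET2 was 1.25-fold higher in the libraries labelled HK3-null than in the Cas9 control (0.32, SE 0.06, adjusted p 0.00113). In DMSO the difference was 0.16 (adjusted p 0.0574, or 0.0322 with the replicate block). ATRA raised TET2 1.16-fold in the line labelled HK3-null (0.21, adjusted p 0.0171). That call was lost without ATRA replicate 3 (adjusted p 0.0619), DMSO replicate 1 (0.0591) or DMSO replicate 3 (0.0531) of that line, and with equal library totals (0.0917). In the Cas9 control the ATRA change was 0.05 (adjusted p 0.595).

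TET3 passed in none of the 4 comparisons, and its spread within groups was wide. Its normalized counts were 3398, 3371 and 2958 in Cas9 control DMSO, 3354, 3534 and 2488 in Cas9 control ATRA, 3651, 4029 and 3250 in DMSO labelled HK3-null, and 4113, 3524 and 2976 in ATRA labelled HK3-null. In every group replicate 3 was the lowest. Between lines the change was 0.17 in DMSO (95% interval -0.15 to 0.49) and 0.18 under ATRA (-0.14 to 0.50). With the replicate block the latter had an adjusted p of 0.0445, against 0.301 without it. ATRA changes were -0.07 and -0.05 in the Cas9 control and the line labelled HK3-null, with intervals from -0.39 to 0.25 and from -0.37 to 0.27.

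TDG, the glycosylase that acts after the TET enzymes, fell with ATRA in the Cas9 control. It stood at 1923, 2010 and 1882 normalized counts in Cas9 control DMSO, 1652, 1435 and 1439 in Cas9 control ATRA, 1960, 2026 and 1842 in DMSO labelled HK3-null, and 1903, 1806 and 1694 in ATRA labelled HK3-null. The Cas9 control ATRA libraries lay below all others. The Cas9 control change was -0.36 (SE 0.07, adjusted p 0.00157), and in the line labelled HK3-null it was -0.11 (adjusted p 0.22, or 0.046 with equal library totals). Between lines TDG did not pass in DMSO (0.00, 95% interval -0.15 to 0.16) and was 1.2-fold higher under ATRA (0.26, adjusted p 0.00789). The difference between the ATRA responses was 0.25 (adjusted p 0.153, or 0.0315 with the replicate block).

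MBD2, the reader, passed as lower between lines in both media. Its normalized counts were 3046, 3332 and 3074 in Cas9 control DMSO, 3322, 3460 and 3058 in Cas9 control ATRA, 2625, 2715 and 2596 in DMSO labelled HK3-null, and 2828, 3067 and 2600 in ATRA labelled HK3-null. The DMSO groups did not overlap, and the ATRA groups overlapped slightly. MBD2 fell by 0.25 on the log2 scale between lines in DMSO (SE 0.07, adjusted p 0.00909) and by 0.21 under ATRA (adjusted p 0.0194). The ATRA call was lost without Cas9 control ATRA replicate 1 (adjusted p 0.0532) or replicate 2 (0.0779), and without ATRA replicate 3 of the line labelled HK3-null (0.0723). ATRA itself gave changes of 0.06 and 0.10, and neither passed.

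Leaving out Cas9 control DMSO replicate 1, the library with the most genes above 0, left 4 members passing between lines in DMSO, 6 passing for ATRA in the Cas9 control and 1, UHRF1, passing for the difference between responses. The members sit on chromosomes 2, 4, 10, 12, 18, 19 and 20, where the median log2 change of all tested genes between lines was at most 0.12 in size. Chromosome 19, which holds DNMT1 and UHRF1, had medians of 0.08 in DMSO and 0.12 under ATRA. With the chromosome median subtracted, DNMT1 in DMSO (-0.23, adjusted p 0.00861) and UHRF1 under ATRA (-0.27, adjusted p 0.00174) passed as lower in the libraries labelled HK3-null.

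Across 12 libraries, which share their 4 group means, DNMT3A and TET2 had a Pearson correlation of 0.89 on the log2 scale and DNMT3A and DNMT3B of 0.76. UHRF1 ran against DNMT3B (-0.86), and DNMT3A against TET1 (-0.83). UHRF1 and DNMT1, partners in maintenance, had a correlation of 0.43. Among 10665 other tested genes whose mean normalized count reached 50, the gene most like each member over the same 12 libraries was CYSTM1 for UHRF1 (0.99), CD99L2 for DNMT3B (0.99), KIAA1841 for DNMT3A (0.99), SEMA4A for TET1 (0.98), MED9 for MBD2 (0.97), ADO for TDG (0.96), CRLF3 for TET2 (0.96), ADNP2 for TET3 (0.92) and DNAJC1 for DNMT1 (0.89). These are descriptions, since any gene with the same group means scores high.

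Chromatin at the 4 regions was less open in the ATACseq libraries labelled HK3-null. The deposited 8286 regions all differ about 1.5-fold or more between the lines under ATRA, on signal + 1 and with a small tolerance below 1.5-fold. Of them 3733 (45.05%) are lower in ATRA labelled HK3-null. The ATRA difference between lines was therefore taken as a condition of the table, and only the DMSO comparison was fitted. Of the 6214 regions above a mean signal of 17.1, 43.9% passed as lower in DMSO and 42.7% as higher. All 4 member regions entered the table as lower under ATRA, and of the 2884 fitted regions that did so, 94.5% passed as lower in DMSO. The DMSO call of the 4 regions is therefore what nearly all such regions show, and their values are given as a description. The median log2 change of the tested regions was 0.33, and on chromosome 19 it was 0.89.

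The TET3 internal region had the widest gap of the 4 in DMSO. Its signal, a fragment density, was 97.6 and 106 in Cas9 control DMSO and 14.1 and 19.9 in DMSO labelled HK3-null (log2 change -2.53, SE 0.33, adjusted p 4.1e-08). Under ATRA it was 80.6 and 47.8 against 22.8 and 17.2. No Cas9 control library overlapped a library labelled HK3-null. The TET3 upstream region read 30.8 and 50 against 14.9 and 12.1 in DMSO (-1.48, SE 0.40, adjusted p 0.00105) and 74.1 and 32.8 against 7.25 and 8.75 under ATRA. TET3 RNA, in contrast with its regions, did not pass between lines in either medium.

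The upstream TET3 region lies in an exon of DGUOK-AS1, which the table lists beside TET3. DGUOK-AS1 RNA was low, at 10, 22 and 12 normalized counts in Cas9 control DMSO and 25, 31 and 24 in Cas9 control ATRA. It was listed at 0, 1 and 0 in DMSO labelled HK3-null and at 0, 2 and 1 in ATRA labelled HK3-null. The lines did not overlap in either medium. This gene was looked at because its exon holds the region, after the region's values were seen.

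At UHRF1 the RNA and both intronic regions were lower in DMSO labelled HK3-null than in Cas9 control DMSO. The proximal region read 84.5 and 78.2 in Cas9 control DMSO against 42.4 and 30.2 (-1.16, SE 0.31, adjusted p 0.00114), a call lost without DMSO replicate 2 of the line labelled HK3-null (adjusted p 0.0531). The distal region read 54.5 and 54.7 against 25.3 and 21.9 (-1.18, SE 0.37, adjusted p 0.00425). With ATRA the proximal values were 71.4 and 56.5 in the Cas9 control against 21.2 and 20.8, and the distal values were 50.2 and 28.3 against 12.7 and 6.43. In the line labelled HK3-null both regions read lower under ATRA than under DMSO, while UHRF1 RNA there rose. The ATRA change of the regions was not tested. ARRDC5, listed with both regions, had at most 6 normalized counts in any library.

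**Figure D3:**
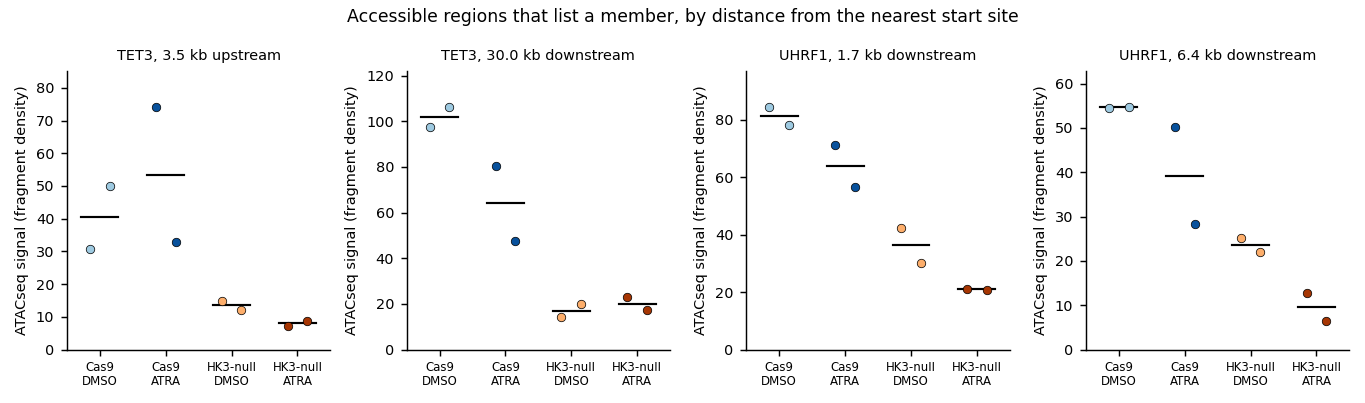
ATACseq signal (y axis, fragment density after down-sampling to the smallest library, from 0) of the 4 member regions in each library, by group on the x axis, with HK3-null standing for libraries so labelled. Points are libraries and bars are means of 2, and each panel gives the distance from the nearest start that has a RefSeq promoter window. In every panel both libraries labelled HK3-null lay below both Cas9 control libraries of the same medium.

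Around the 9 members stand genes that supply, guide or follow them, grouped here into lists drawn up by function. Among all tested genes, 27.9% passed higher and 27.1% lower between lines in DMSO, and 29.6% and 29.5% under ATRA. With ATRA 20.3% passed higher and 21.3% lower in the Cas9 control, and 24.0% and 25.1% in the line labelled HK3-null. Several list counts below lie near these shares. Methyl donor supply, the folate and methionine enzymes that make S-adenosylmethionine, had the largest share of lower genes among the 6 lists between lines. Of 16 tested genes, 1 was higher and 9 lower between lines in DMSO (median log2 change -0.35), and 0 higher and 10 lower under ATRA (-0.44). ATRA itself lowered 7 and raised 1 in the Cas9 control, and lowered 8 and raised 0 in the line labelled HK3-null. MAT2A, which makes S-adenosylmethionine, fell between lines in DMSO from 27444 ± 3136 to 16395 ± 2735 normalized counts (SD, n = 3; adjusted p 0.00126). AHCY, which clears the product that inhibits methyltransferases, fell under ATRA from 13381 ± 384 to 6888 ± 772 between lines (adjusted p 6.21e-07). MTHFD2, a mitochondrial folate enzyme, fell with ATRA by 0.74 on the log2 scale in the Cas9 control and by 1.02 in the line labelled HK3-null. MTRR also fell between lines under ATRA (-0.91), and lies on chromosome 5, where the median change was -0.77.

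Of 15 tested maintenance partners and chromatin genes, 1 was higher and 7 lower between lines in DMSO, and 2 higher and 5 lower under ATRA. HELLS, a remodeller needed for methylation, fell in DMSO from 929 ± 129 to 550 ± 80.1 normalized counts (adjusted p 0.00432). CDCA7, a partner of HELLS, fell under ATRA from 8033 ± 943 to 4636 ± 464 (adjusted p 1.99e-05). HDAC2, a deacetylase, rose by 1.17 in DMSO, on chromosome 6 where the median was 0.53. With ATRA 0 genes of the list rose and 5 fell in the Cas9 control, led by TRIM28 (-0.45) and the histone methyltransferase EHMT2 (-0.42). In the line labelled HK3-null 2 rose and 6 fell, led by EHMT2 (-0.90).

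The list of methyl-CpG readers holds genes of the MBD family, other readers and subunits of the complexes they join. It went by family and function, and binding of the mark was not measured. Of 15 tested, 2 were higher (13.3%) and 5 lower (33.3%) between lines in DMSO. Under ATRA 1 was higher (6.67%) and 4 lower (26.7%), the latter near the 29.5% of all tested genes. MTA1, a subunit of the complex that MBD2 joins, fell in both media (-0.51 and -0.63, adjusted p 1.2e-05 and 1.75e-06), and so did RBBP4 of the same complex (-0.27 and -0.23). ATRA raised 3 and lowered 2 in the Cas9 control, and raised 4 and lowered 3 in the line labelled HK3-null. MBD6 rose most, by 0.89 and 0.76 on the log2 scale.

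Among 16 TET partners and regulators, 4 were higher (25%) and 4 lower (25%) between lines in DMSO. These shares lie near the 27.9% and 27.1% of all tested genes. Under ATRA 3 were higher (18.75%) and 6 lower (37.5%). WT1, which binds TET2, fell with ATRA from 1198 ± 111 to 309 ± 76.0 normalized counts in the Cas9 control (adjusted p 6.42e-05) and from 2109 ± 169 to 287 ± 94.4 in the line labelled HK3-null (adjusted p 1.76e-06). In DMSO it was higher in the libraries labelled HK3-null by 0.82 (adjusted p 0.0135). IDH3A and IDH2 make the TET cofactor alpha-ketoglutarate or act beside it in the citric acid cycle. IDH3A fell between lines (-1.42 in DMSO and -1.74 under ATRA), on chromosome 15 where the medians were -0.94 and -0.98. IDH2, on the same chromosome, rose with ATRA in the Cas9 control by 0.46 (adjusted p 0.000142). In that comparison 2 genes of the list were higher and 4 lower, and in the line labelled HK3-null 3 were higher and 6 lower.

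Base excision repair follows TDG. Of 15 tested genes, ATRA raised 3 and lowered 8 in the Cas9 control, and raised 2 and lowered 7 in the line labelled HK3-null. NEIL2 fell by 1.36 on the log2 scale in the Cas9 control, from 102 ± 7.51 to 40.3 ± 9.02 normalized counts. In the line labelled HK3-null NEIL2 fell by 2.49, from 400 ± 32.9 to 71.3 ± 4.51. NTHL1, a glycosylase, fell from 1107 ± 54.5 to 554 ± 50.2 normalized counts in the Cas9 control (adjusted p 3.19e-05). In the line labelled HK3-null NTHL1 fell from 535 ± 30.8 to 147 ± 21.8 (adjusted p 1.32e-07). UNG fell by 0.86 in the Cas9 control, and PARP1 by 0.66 in the line labelled HK3-null. Between lines 3 were higher and 5 lower in DMSO, and 5 higher and 6 lower under ATRA. NEIL2 was higher by 1.98 in DMSO, on chromosome 8 where the median was 1.11. GADD45A, linked to active demethylation, was higher by 1.02 and 1.21 (adjusted p 8.63e-05 and 1.92e-05).

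DNA replication genes give the S-phase context of UHRF1 and DNMT1. Of 32 tested, 5 were higher and 14 lower between lines in DMSO, and 6 higher and 10 lower under ATRA. ATRA raised 4 and lowered 3 in the Cas9 control, and raised 8 and lowered 2 in the line labelled HK3-null. The 8 raised were 25% of the list, where 24.0% of all tested genes rose. RRM2, a subunit of ribonucleotide reductase, rose there from 6344 ± 470 to 9900 ± 590 normalized counts (adjusted p 0.000125), and E2F2 rose in both lines by 1.31 and 1.09. CCNE2 and GINS4, the most raised between lines in DMSO (1.27 and 1.16), lie on chromosome 8, where the median was 1.11. The summed level of the list ran from 168370 to 182981 in Cas9 control DMSO and from 154971 to 173927 in DMSO labelled HK3-null, and its part in the UHRF1 difference was not tested.

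**Figure D4:**
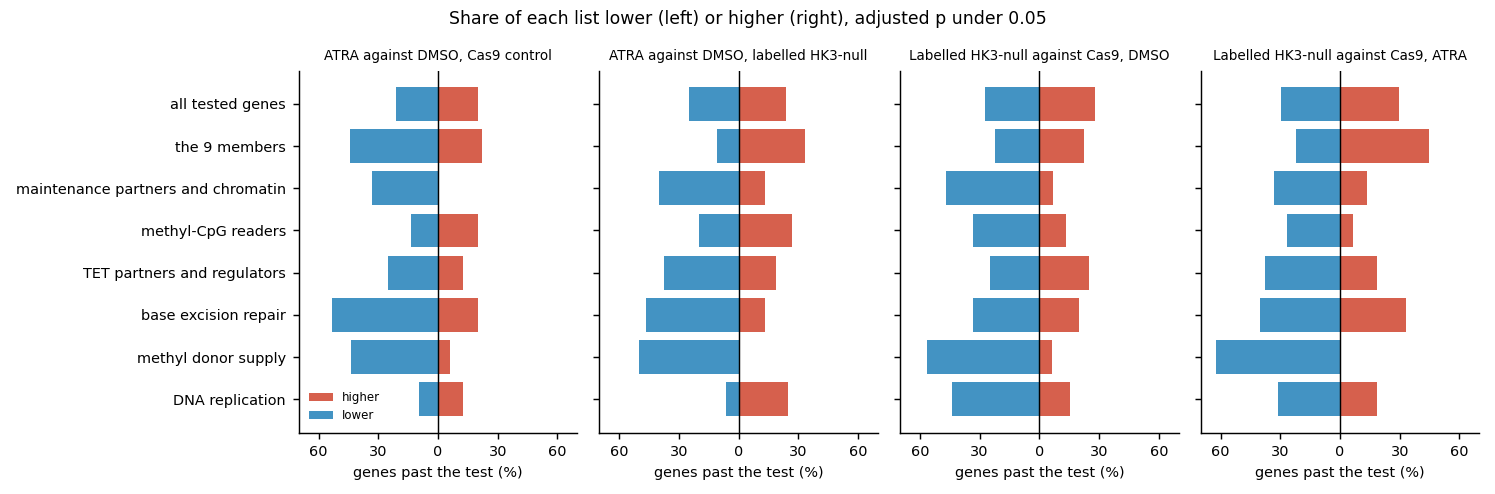
Share of tested genes (x axis, %) that passed lower (left of 0) or higher (right of 0) at an adjusted p under 0.05, for all tested genes, the 9 members and 6 lists (y axis), in the 4 comparisons. In the methyl donor supply list 62.5% passed lower between lines under ATRA, where 29.5% of all tested genes did.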

How the data were processed

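RNAseq values were deposited per gene on a log2 scale. Their antilogs were whole numbers, with 0 entered as log2 of 0.001, so they were read as log2 of normalized counts. The methods describe RPKM, and the submitters' processing notes name DESeq2 and MACS2. The aligner and counter of the RNAseq reads were not given in the sources used here. ATACseq signal was deposited by the authors as fragment density in merged MACS2 regions on hg38, from tags down-sampled to the smallest library, so depth is unknown and the number of libraries limits precision.

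The 13256 genes whose mean log2 value exceeded 3 in at least 1 group were fitted with limma 3.58.1 in R 4.3.3, with a mean for each of 4 groups and an intensity trend, and p-values were adjusted over all of them (threshold 0.05, two-sided). ATACseq was fitted likewise on log2(signal + 1) over 6214 regions above the 25th percentile of mean signal. Thresholds of unadjusted p 0.05 and 1.5-fold, as in the study's methods, were applied to the same fit as an alternative, and the study's own two-way analysis was not run. The procedure was tested on simulated data with noise drawn independently for each library. The pairing of libraries described below was not simulated, so that test does not cover it.

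Members and lists were chosen with earlier results of these data known. Named list genes were up to 3 per list and comparison with the largest change among those that passed, did not overlap between groups and reached a mean of 50 normalized counts. Some items are not reported here. Same-numbered libraries of different groups deviated together (correlations of 0.19 to 0.63 over 18 pairs and 10666 genes, on log2(normalized count + 1)). Replicate numbers were therefore taken to pair the libraries, and the replicate block is given where it changes a call. Counts, shares and figures come from the fit without the block, unless stated. Entries without a gene name (at most 0.00926% of a library) were left out. Lengths came from GENCODE v44, promoters from RefSeq.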

Additional observations from a re-analysis of the deposited data

Results flagged for a closer look

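The ATRA response of UHRF1 differed between the lines by a test of the difference itself. In the fit without the replicate block no other member passed that test. With the block DNMT3B (adjusted p 0.0170), TET1 (0.0434) and TDG (0.0315) passed as well, and TET1 also passed with equal library totals (0.0448). The log2 change under ATRA was -0.24 in the Cas9 control and 0.27 in the line labelled HK3-null, a difference of 0.51 (limma, adjusted p 0.00221). It held under all 19 alternatives run, with adjusted p from 0.00037 to 0.00782. All 3 ATRA libraries lay below all 3 DMSO libraries in the Cas9 control and above them in the line labelled HK3-null. No explanation was tested.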

How the results depend on the processing

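Of the alternatives for single genes and regions, 618 values kept direction and call, 16 gained a call, 9 lost it and 28 changed sign. None of the 28 had passed in the fit reported above. The count of members passing for the difference between ATRA responses went from 1 to 2 with equal library totals and to 4 with the replicate block, which added DNMT3B, TET1 and TDG. At an unadjusted p under 0.05 with at least 1.5-fold, 2 members passed between lines under ATRA, 3 for ATRA in the Cas9 control and 2 for ATRA in the line labelled HK3-null. The replicate block changed no other call than those printed beside the results.

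Changes of sign, on the log2 scale, were as follows. Under quantile normalization TET1 between lines in DMSO was -0.0623, DNMT1 between lines under ATRA -0.0695, TET3 for ATRA in the Cas9 control 0.0126, DNMT3B for ATRA in the line labelled HK3-null -0.0173, and the differences between responses of TET3 and MBD2 were -0.0622 and -0.0346. With equal totals DNMT1 between lines under ATRA was -0.0213, and those differences for TET3 and MBD2 were -0.0677 and -0.0472. With the chromosome median subtracted TDG between lines in DMSO was -0.0209, DNMT1 between lines under ATRA -0.1045 and TET3 for ATRA in the line labelled HK3-null 0.003. The cause was not tested.

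Leaving out 1 library at a time moved TET1 between lines in DMSO from -0.0378 to 0.123, TDG between lines in DMSO from -0.0282 to 0.0404, TET3 for ATRA in the Cas9 control from -0.164 to 0.0894 and in the line labelled HK3-null from -0.164 to 0.069, and the differences between responses of TET3 from -0.139 to 0.136 and of MBD2 from -0.0214 to 0.0978. Members passing ran from 4 to 5 between lines in DMSO, 5 to 7 between lines under ATRA, 3 to 4 for ATRA in the line labelled HK3-null, and 3 to 4 for ATACseq regions.

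All-gene medians moved by under 0.1 with any scaling. Groups of 3 and 2 libraries from a Cas9 control and a line labelled HK3-null cannot tell the label from other differences between the lines. Medians over chromosomes 5, 6, 8, 13 and 15 also differed between them, and no member lies there.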
